A study of Homo sapiens with 6 samples.

Results

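This account concerns TRAIL (tumour necrosis factor-related apoptosis-inducing ligand), its receptors, the related death receptor FAS, the adaptor FADD, the initiator caspases CASP8 and CASP10, and their regulator CFLAR. The set holds 10 genes, listed by name: TNFSF10, TNFRSF10A, TNFRSF10B, TNFRSF10C, TNFRSF10D, FAS, FADD, CASP8, CASP10 and CFLAR. Of these, 9 had an array row that named no other gene, among 18417 genes measured that way. TNFRSF10C shared its only row with another gene symbol, so no value is given for it. Where a gene had several rows, the row was chosen by the highest mean log2 signal over the 6 arrays. That choice mattered for CFLAR alone, whose 2 rows averaged 6.66 and 5.76 with control siRNA. The set was also put together with earlier results of these arrays known, the rises of TNFSF10 and CASP10 among them, so the tests of those genes are no independent evidence.

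RNA came from YCC3, a human gastric cancer cell line, collected 48 hours after transfection with siRNA against CTNNB1 (3 arrays) or with a non-targeting control siRNA (3 arrays). CTNNB1 encodes beta-catenin, a junction protein and Wnt pathway co-activator. The comparison asks how transcripts differ between cells given siRNA against CTNNB1 and cells given control siRNA. Effects of losing beta-catenin and effects of the siRNA itself cannot be told apart in this design. Both groups were transfected, and no untransfected cells are among the samples. The labels call the samples biological replicates without saying whether they were separate cultures. The p-values therefore set the group difference against the spread within the groups of these 6 samples, which may be technical. Values are log2 signals from an Affymetrix Human Gene ST array after RMA, a method that corrects background, makes the arrays' distributions alike and combines the probes of a row. A difference of 1 is a 2-fold difference in signal. Probes of different genes bind with different strength, so their signals give no order of expression between genes.

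TRAIL is a membrane protein of the tumour necrosis factor family, made by immune cells and by many epithelial cells exposed to interferon. It binds the death domain receptors encoded by TNFRSF10A and TNFRSF10B, while the products of TNFRSF10C and TNFRSF10D bind it without passing on a death signal. Bound death receptors recruit FADD, which gathers procaspase-8 and procaspase-10 so that they activate each other. FLIP, the product of CFLAR, enters the same complex and in most settings restrains that step.

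CTNNB1 itself, the targeted gene, measured 11.80, 11.81 and 11.90 on the control arrays and 10.94, 11.06 and 11.20 on the CTNNB1 siRNA arrays. The groups did not overlap, with a change of -0.77 ± 0.10 (SE) and adjusted p = 0.00267 in limma. The CTNNB1 signal was 0.586 times that with control siRNA, a partial fall. The median of all rows was 5.88 to 5.95 depending on the array. All 9 measured epithelial markers were above the array median on every array, with KRT8, a keratin of simple epithelium, at 13.57 ± 0.08 (SD, n = 3) with control siRNA. The dimmest of 13 leukocyte markers was PTPRC, the pan-leukocyte antigen CD45, at 2.58 ± 0.19 and 2.67 ± 0.07 (SD, n = 3 each) with control and CTNNB1 siRNA. The brightest of these 13, LYZ, averaged 12.36 with control siRNA. On every array 3 of the 13 lay above the array median and 10 below it. LUM, the dimmest of 10 endothelial and fibroblast markers, measured 2.20 ± 0.11 and 2.40 ± 0.10 (SD, n = 3 each). The brightest of these 10, COL1A1, averaged 6.66 (SD 0.05) on the 3 control arrays and 6.77 (SD 0.03) on the 3 CTNNB1 siRNA arrays. COL1A1 lay above the array median on every array, while 8 of the 10 lay below it throughout.

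Of the 9 measured members, 2 rose, none fell and 7 did not pass the threshold of 0.05 on limma's adjusted p. The ligand gene TNFSF10 rose more than 3-fold and CASP10 1.48-fold. Over all genes, 4.72% were called in either direction, 2.07% higher and 2.65% lower. At an unadjusted p under 0.05 the count among members was the same 2 genes, beside 20.3% of all genes, so at that threshold the members' count was near the background. The members' median change was 0.02, against 0.01 for all genes, with 5 positive and 4 negative changes. The 7 uncalled members had log2 changes between -0.12 and 0.13 and adjusted p between 0.479 and 0.937. Their 95% confidence intervals all lay between -0.33 and 0.34 log2 units.

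**Figure D1:**
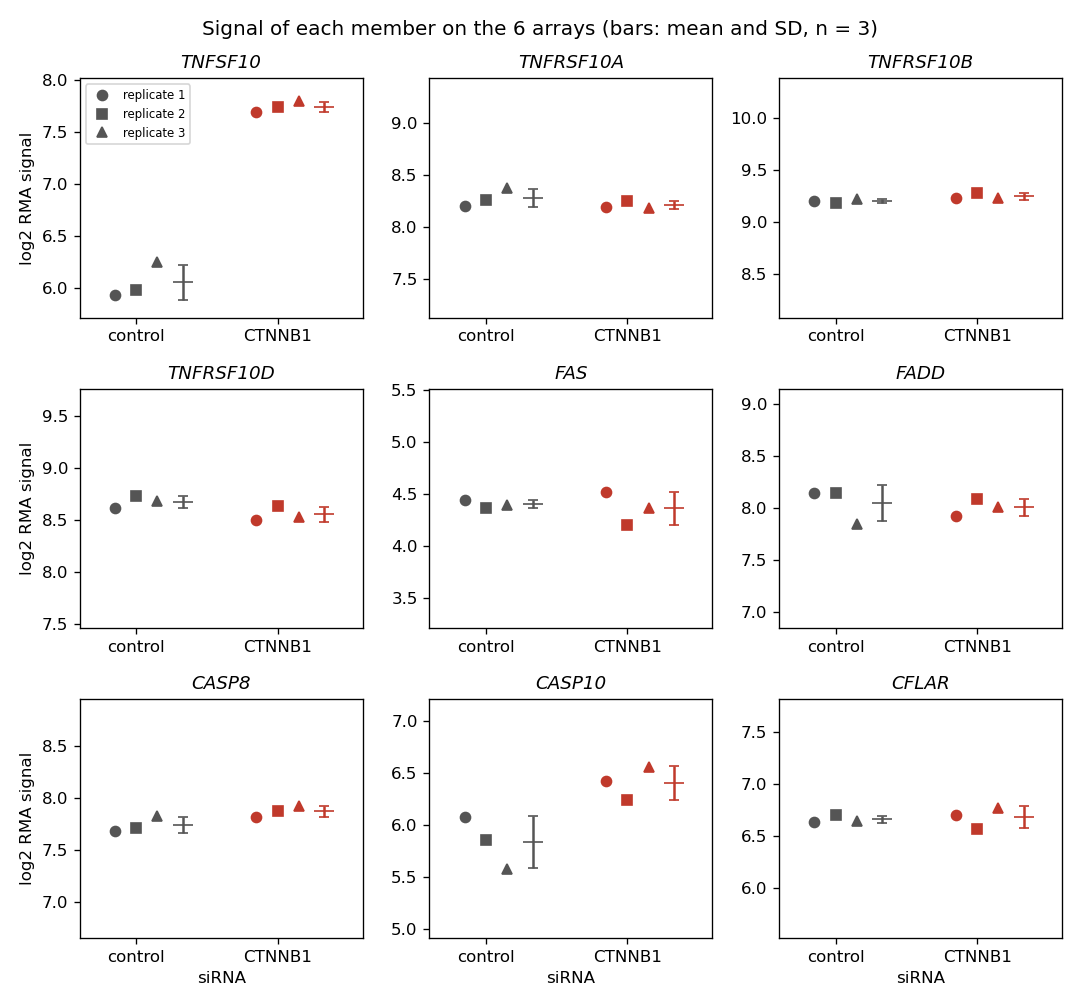
Log2 RMA signal of the 9 measured members on each of the 6 arrays, with control siRNA in grey and CTNNB1 siRNA in red, marker shapes for the replicate numbers, and bars for mean and SD (n = 3). Every panel spans the same height on the log2 axis, and only TNFSF10 and CASP10 show groups that stand clearly apart.

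TNFSF10, which encodes TRAIL itself, measured 5.94, 5.99 and 6.25 on the control arrays and 7.69, 7.74 and 7.80 on the CTNNB1 siRNA arrays. The groups did not overlap, and the lowest CTNNB1 siRNA array lay 1.44 log2 units above the highest control array. The means were 6.06 ± 0.17 and 7.74 ± 0.05 (SD, n = 3 each). The rise was 1.69 ± 0.11 log2 units (SE), or 3.22-fold, with a 95% confidence interval of 2.72 to 3.80 (limma, adjusted p = 1.28e-05). It ranked 31st by p and was the 34th largest rise among all genes. The control signal lay close to the array medians and was not shown to exceed background, so the fold is one of array signal. In a culture measured in bulk, more RNA per cell and more cells expressing the gene cannot be told apart. With any 1 array left out, the change stayed between 1.63 and 1.78 and the adjusted p at or below 0.000327.

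The TNFSF10 promoter is printed here because TNFSF10 showed the largest change in the set. RefSeq (GRCh38.p14) places the 250 bases before its transcription start at chr3:172523431-172523680 on the minus strand. The CASP8 stretch at chr2:201233363-201233469 (plus strand) is shown with it because it was the other member window with the same match, while CASP8 itself was not called. Capitals mark matches to the core of the interferon-stimulated response element, to which IRF and STAT factors bind, searched as GAAA, any 2 bases and GAAA again, and as its reverse complement.
TNFSF10: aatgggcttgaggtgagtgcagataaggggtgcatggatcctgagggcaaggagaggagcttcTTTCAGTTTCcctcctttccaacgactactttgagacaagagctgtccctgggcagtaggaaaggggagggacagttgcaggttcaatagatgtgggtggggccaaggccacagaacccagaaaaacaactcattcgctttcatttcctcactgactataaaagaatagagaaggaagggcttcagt
CASP8: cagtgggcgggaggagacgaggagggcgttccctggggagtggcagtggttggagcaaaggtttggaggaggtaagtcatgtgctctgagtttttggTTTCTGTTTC

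The TNFSF10 match began at position -187 from the start site. The CASP8 match began at position -3 and ran across the start of the first of 3 annotated CASP8 windows. The promoter table held 12 windows of 300 bases for 5 of the 9 measured members, namely TNFSF10, FAS, FADD, CASP8 and CFLAR. The response element core was in 2 of these 12 windows, against 3.57% of all 35116 windows. The gamma-activated sequence, a STAT dimer site searched as TTCNNNGAA, was in 1 of the 12 windows, that same CASP8 window at position -200, against 7.66% of all windows. The TCF/LEF motif through which beta-catenin acts, searched as CTTTGAT on both strands, was in none of the 12 and in 2.62% of all windows. At such shares 12 windows, some of them overlapping, are too few to read a presence or an absence as a result. CASP10 had no window. A match describes letters only, and binding was not measured.

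**Figure D2:**
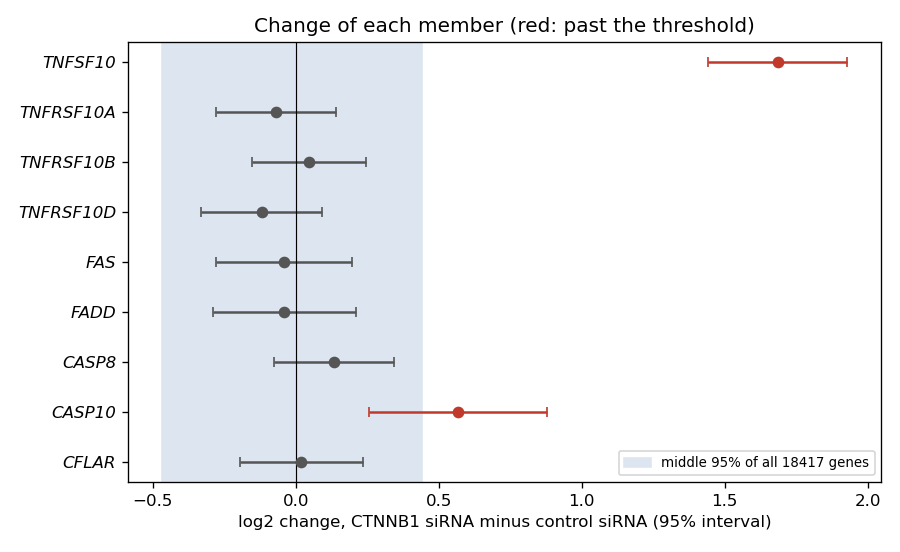
Log2 change (CTNNB1 siRNA minus control siRNA) of each measured member with its 95% confidence interval, red where limma's adjusted p was under 0.05; the shaded band holds the middle 95% of changes of all 18417 genes, from -0.467 to 0.442. TNFSF10 and CASP10 lie outside the band and the other 7 members inside it.

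None of the measured receptor genes passed the threshold. TNFRSF10A, which encodes the death receptor DR4, measured 8.20, 8.27 and 8.38 with control siRNA and 8.19, 8.26 and 8.19 with CTNNB1 siRNA. These groups overlapped, with a log2 change of -0.07 ± 0.09 (SE). TNFRSF10B, which encodes DR5, measured 9.20, 9.18 and 9.22 with control siRNA and 9.23, 9.28 and 9.22 with CTNNB1 siRNA. Its groups did not overlap, but by only 0.0072 log2 units, and the change of 0.05 ± 0.09 (SE; limma, adjusted p = 0.822) did not pass. Groups that did not overlap were found for 3 of the 9 members and for 26.0% of all genes, so DR5's separation was of a kind common on these arrays.

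TNFRSF10D, whose product carries a truncated death domain and acts as a decoy, measured 8.61, 8.73 and 8.68 with control siRNA and 8.49, 8.64 and 8.52 with CTNNB1 siRNA. The change was -0.12 ± 0.09 (SE), the lowest of the set, and the groups overlapped. The mean of the death domain receptors TNFRSF10A and TNFRSF10B minus TNFRSF10D, taken within each array, was 0.11 log2 units higher with CTNNB1 siRNA. The groups of this difference did not overlap, and the exact two-sided permutation test gave p = 0.1, the smallest that 3 arrays against 3 can give, so the test cannot pass 0.05. The 4 TRAIL receptor genes are neighbours of related sequence, and how far the probes of one read another was not tested.

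FAS, a death receptor that binds FAS ligand and uses the same adaptor, gave a dim signal on every array. It measured 4.44, 4.37 and 4.39 with control siRNA and 4.52, 4.20 and 4.36 with CTNNB1 siRNA, and was the only member below the array median throughout. The control values all lay between the lowest and highest CTNNB1 siRNA values, and the change was -0.04 ± 0.11 (SE). Whether it exceeded background is unknown, so a change in FAS at a low level may be missed.

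FADD, the adaptor shared by these receptors, measured 8.15, 8.15 and 7.85 with control siRNA and 7.93, 8.09 and 8.02 with CTNNB1 siRNA. The spread among control arrays (SD 0.17) was larger than the change of -0.04 ± 0.11 (SE). Control replicate 3 was the lowest of the 6 arrays.

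CASP10, an initiator caspase found in humans and absent from mice, was the other gene called. It measured 6.08, 5.86 and 5.57 on the control arrays and 6.42, 6.24 and 6.56 on the CTNNB1 siRNA arrays. The groups did not overlap, with a gap of 0.16 log2 units between them, and its control arrays had the largest SD of any measured member. The means were 5.84 ± 0.25 and 6.41 ± 0.16 (SD, n = 3 each). The rise was 0.57 ± 0.14 log2 units (SE), or 1.48-fold, with a 95% confidence interval of 1.19 to 1.84 (limma, adjusted p = 0.0486). The control signal lay near the array medians, and whether it exceeded background is unknown.

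The CASP10 call needed all 6 arrays. With control replicate 1, 2 or 3 left out, limma gave an adjusted p of 0.0506, 0.0942 and 0.149, and with CTNNB1 siRNA replicate 1, 2 or 3 left out 0.156, 0.0611 and 0.105. The change stayed positive in each, from 0.44 to 0.69 log2 units. It also missed the threshold under each other scaling between arrays, with adjusted p of 0.0614 after a second quantile normalization, 0.0542 after median centring and 0.0619 after cyclic loess. Among all genes CASP10 ranked 850th by p, where 870 were called.

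CASP8, the main initiator caspase of the death receptor pathway, measured 7.68, 7.71 and 7.83 with control siRNA and 7.82, 7.88 and 7.93 with CTNNB1 siRNA. The groups overlapped only slightly, control replicate 3 at 7.8293 and CTNNB1 siRNA replicate 1 at 7.8218. The change was 0.13 ± 0.09 (SE; limma, adjusted p = 0.479), with a 95% confidence interval of -0.08 to 0.34. An increase of up to 27.0% in signal is inside that interval.

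CFLAR measured 6.64, 6.70 and 6.64 with control siRNA and 6.71, 6.56 and 6.77 with CTNNB1 siRNA on its brighter row. The change was 0.02 ± 0.10 (SE), with overlapping groups. The dimmer CFLAR row, not used for the gene, changed by 0.01 ± 0.21 (SE). Which CFLAR transcripts each row reads is not known here, and the long and short FLIP isoforms were not told apart.

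CFLAR, CASP10 and CASP8 lie next to each other in that order on chromosome 2 in RefSeq (GRCh38.p14), and all encode proteins with paired death effector domains. Of these neighbours only CASP10 was called. Whether it changed more than CASP8 was tested within arrays: the difference CASP10 minus CASP8 was 0.43 log2 units higher with CTNNB1 siRNA, the groups overlapped, and the exact two-sided permutation p was 0.2. The difference CASP8 minus CFLAR was 0.11 higher (exact two-sided permutation p = 0.3). With 20 possible assignments neither test could give a p below 0.10, and unequal change among the neighbours was not shown. After Benjamini-Hochberg adjustment over the 3 within-array tests each exact permutation p was 0.3.

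**Figure D3:**
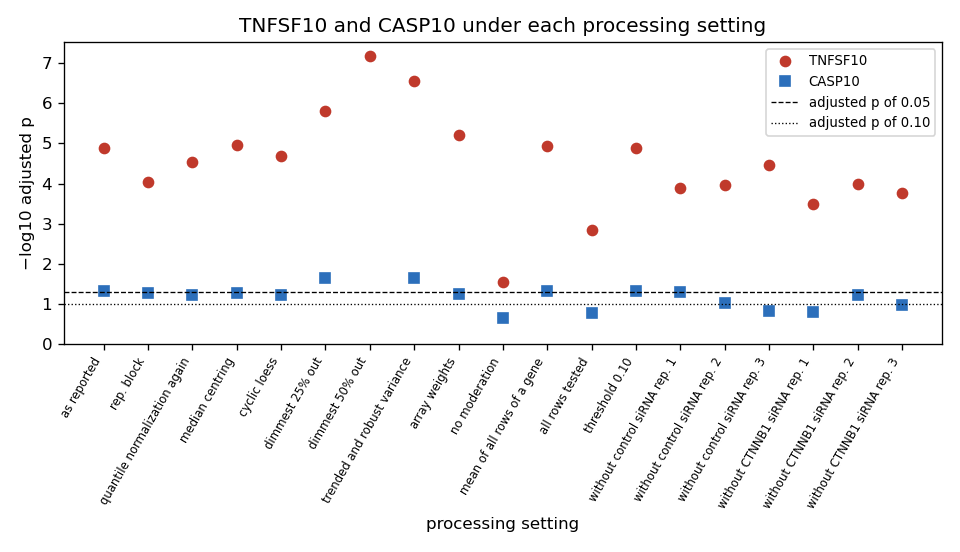
Minus log10 of limma's adjusted p for TNFSF10 (red circles) and CASP10 (blue squares) as reported and under each of 18 other settings, with dashed and dotted lines at adjusted p of 0.05 and 0.10; CASP10 has no point where the dimmest 50% of genes were left out. TNFSF10 lies above the dashed line throughout, and CASP10 falls under it in 13 of 17 settings.

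Further genes of the pathway were read from lists arranged by role. Among 15 other death ligands and receptors, TNFRSF21, which encodes the orphan death receptor DR6, rose and 14 did not pass, with a list median of 0.16. TNFRSF21 went from 9.54 ± 0.06 to 10.14 ± 0.14 (SD, n = 3 each), a rise of 0.60 ± 0.10 log2 units (SE; limma, adjusted p = 0.0117). Leaving out control replicate 1 raised its adjusted p to 0.0657, and leaving out CTNNB1 siRNA replicate 1 to 0.0564.

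Among 22 adaptors and modulators at the receptors, 1 rose and 2 fell, 19 missed the threshold, and the median was 0.01. RBCK1, which encodes HOIL-1, part of the linear ubiquitin ligase, rose by 0.47 ± 0.11 log2 units (SE; adjusted p = 0.0439). CUL3, the scaffold of a ubiquitin ligase that modifies caspase-8, fell by 0.49 ± 0.10 (adjusted p = 0.0228). FAIM, an inhibitor of FAS-induced death, fell by 0.40 ± 0.09 (adjusted p = 0.0380). Each of these calls was lost without 1 array or another. Without control replicate 1 the adjusted p was 0.166 for RBCK1, 0.0991 for CUL3 and 0.139 for FAIM, the highest value for each. FAIM was lost without any 1 of the 6 arrays (0.0578 to 0.139), RBCK1 without any but CTNNB1 siRNA replicate 3, and CUL3 without control replicate 1 or 3 or CTNNB1 siRNA replicate 1 or 2.

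Downstream of the initiator caspases, 1 of 19 genes of the other caspases, mitochondrial branch and inhibitors of apoptosis fell and 18 were not called, and the median was 0.05. The called gene was PARP1, a DNA repair enzyme cut by executioner caspases, which fell by 0.55 ± 0.12 log2 units (SE; adjusted p = 0.0287). The call was lost when control replicate 1 (adjusted p = 0.132), control replicate 3 (0.0967), CTNNB1 siRNA replicate 1 (0.0967) or CTNNB1 siRNA replicate 2 (0.0874) was left out. None of 5 enzymes that glycosylate TRAIL receptors passed limma's threshold, with GALNT3 at 0.17 ± 0.10 and FUT3 at 0.25 ± 0.12 (SE).

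Of 10 transcription factors known to act on members of the set, 3 rose, none fell and 7 were not called, with a median of 0.17. IRF9, the DNA-binding part of the interferon-activated ISGF3 complex, rose by 0.70 ± 0.09 log2 units (SE; adjusted p = 0.00267). IRF1, an interferon-induced activator, rose by 0.70 ± 0.11 (adjusted p = 0.00704) and IRF7 by 0.79 ± 0.14 (adjusted p = 0.0120). The adjusted p of IRF1 and IRF9 stayed under 0.05 with any 1 array left out, but IRF1 lost its call without moderation (0.102) and with all rows tested (0.0552), where IRF9 kept it. For IRF7 the adjusted p rose to 0.0525 when control replicate 3 was left out and to 0.0695 when CTNNB1 siRNA replicate 1 was.

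The 5 genes whose profile over the 6 arrays was most like that of TNFSF10 were HERC6, PARP9, RIGI, SAMD9L and SAMHD1. Likeness was measured as the root mean square difference of log2 signals after each gene was centred on its own mean, which was 0.06 for HERC6, 0.07 for PARP9, 0.10 for RIGI and 0.11 for SAMD9L and SAMHD1. All 5 rose, by between 1.54 and 1.80 log2 units (limma, adjusted p from 6.41e-06 to 2.41e-05), and all are known as interferon-inducible genes. The measure rests on 3 arrays a group and mainly reads the size of the difference between the groups. Because the 5 genes were picked by it on these same arrays, their rises and adjusted p follow from the choice and are no separate evidence.

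**Figure D4:**
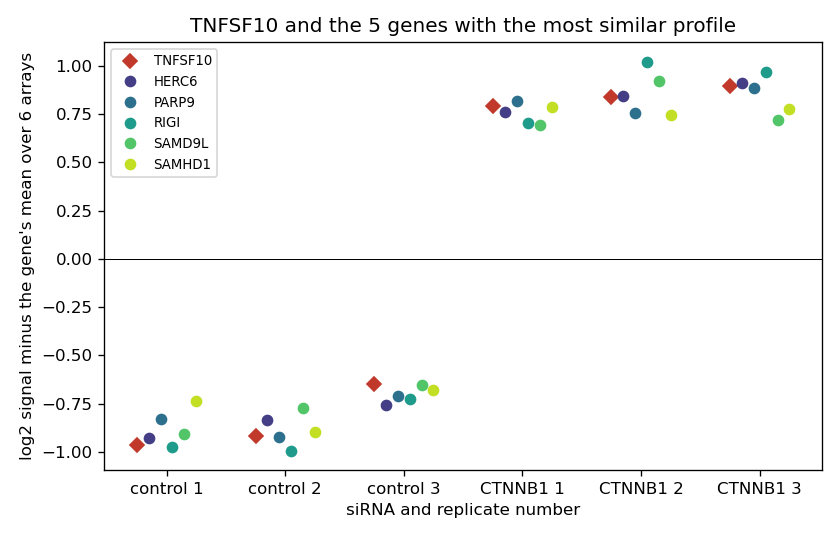
Log2 signal minus each gene's mean over the 6 arrays, by siRNA and replicate, for TNFSF10 (red diamonds) and the 5 genes with the smallest root mean square difference from it. On each CTNNB1 siRNA array all 6 genes lie above 0 and on each control array below it.

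Markers of other cells were set beside these rises. Of 13 leukocyte markers 1 rose, CD68, a lysosomal protein gene, by 0.95 ± 0.14 log2 units (SE; limma, adjusted p = 0.00547), and 10 lay below the array median on every array. The summed log2 signal of the 13 ran from 70.9 to 73.7 on control arrays and from 72.9 to 75.0 on CTNNB1 siRNA arrays. LYZ, which is also made by gastric epithelium, was above the array median throughout, at 12.36 ± 0.04 and 12.07 ± 0.06 (SD, n = 3 each). No endothelial or fibroblast marker of 10 passed in limma, and their summed log2 signal ran from 45.5 to 46.2 and from 46.2 to 47.1. Among 9 epithelial markers CLDN4 rose by 0.61 ± 0.10 and ELF3 by 0.48 ± 0.12 (SE), with summed log2 signals of 98.6 to 99.5 and 100.3 to 100.9. ELF3 was lost without any 1 array (adjusted p 0.0548 to 0.184). CD68 and CLDN4 lost their calls without moderation (adjusted p 0.129 and 0.0705) and with all rows tested (0.0584 and 0.0506). PTPRC was below the array median on every array of both groups, while 3 leukocyte markers, CD68 and LYZ among them, were above it throughout. The part of other cells in the rises of TNFSF10 and CASP10 was not tested.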

How the data were processed

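Per the submitters' processing notes, the authors made the deposited log2 signals with RMA in Affymetrix Expression Console 1.1. Their range gave the log2 scale. The build and the annotation behind them: not given in the sources used here. The biotin labelling began from 500 ng of total RNA, per the labels. RMA makes arrays alike and so hides any shift common to most genes. No scanner intensities were used, so detection above background is unknown, and the number of arrays limits the precision.

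Of 33297 rows, 19460 named 1 gene, leaving 18417 genes. CTNNB1 siRNA was compared with control siRNA by two-sided moderated linear models (limma 3.58.1, R 4.3.3) without a filter or block, with Benjamini-Hochberg adjustment over all genes. "Rose", "fell" and "called" mean an adjusted p under 0.05. The SE and confidence interval of each change were moderated too, drawing on the spread of all genes or rows in the fit. The fit was checked on simulated data. Within-array differences were tested by exact permutation of the 6 arrays. TNFRSF10C entered none.

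The members and lists were chosen with earlier results of these data known. Named genes are the members, CTNNB1, called list genes (at most 4 a list by p, or the 2 with the smallest p), the 5 genes most like TNFSF10, and called, brightest or dimmest markers. List genes without a row of their own were not analysed here. Alternatives were a replicate block, other scalings, dim-gene filters, variance models, array weights, other rows, a threshold of 0.10 and leaving out each array. For list genes these were added after seeing the data.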

Additional observations from a re-analysis of the deposited data

How the results depend on the processing

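TNFSF10 rose and passed the threshold in each of 18 other settings, with log2 changes from 1.63 to 1.78 and the highest adjusted p, 0.0286, in a per-gene test without moderation. No member was called lower in any setting. CASP10 kept its direction but missed the threshold in 13 of 17 settings, so the number of members called higher fell from 2 to 1. Its log2 changes there were 0.57 (adjusted p = 0.0527) with a replicate block, 0.53 after quantile normalization again, 0.53 after median centring, 0.54 after cyclic loess, 0.50 with array weights (adjusted p = 0.0568), 0.57 without moderation (adjusted p = 0.231), 0.57 with all rows tested (adjusted p = 0.168), and 0.44 to 0.69 without single arrays, where 1 member was called each time. Leaving out the dimmest 50% of genes removed CASP10 and FAS, which leaves 1 member called. The labels do not say whether same-numbered arrays were paired, and their deviations correlated at -0.019, 0.329 and 0.223. With the replicate block no member's call changed except that of CASP10. Over all genes, 470 were then called higher and 707 lower.

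Members near no change turned sign without passing. FADD became 0.0015 after quantile normalization again, 0.0093 after cyclic loess, and ran from -0.14 to 0.011 without single arrays. CFLAR became -0.02 after median centring and ran from -0.027 to 0.078 without single arrays, and FAS from -0.12 to 0.040. KRT8 became -0.026 after median centring and ran from -0.052 to 0.059, and PTPRC from -0.011 to 0.17. CTNNB1 lost its call without moderation, with a change of -0.77 and an adjusted p of 0.0660, and kept it in the other 17 settings. Of the called list and marker genes, TNFRSF21, RBCK1, CUL3, FAIM, PARP1, IRF1, IRF7, CD68, CLDN4 and ELF3 lost their calls without moderation (adjusted p 0.0675 to 0.183) and with all rows tested (0.0506 to 0.155), and IRF9 kept its call in all 18 settings. ELF3 also lost it with the replicate block (0.0613) and median centring (0.0542). LYZ passed, lower, without the dimmest 50% of genes (0.0328) and with a trended and robust variance (0.0163). The direction of each within-array difference held in all 10 settings tried.

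Over all genes, 382 were called higher and 488 lower as reported. These became 556 and 927 without the dimmest 25% of genes and 645 and 1216 without the dimmest 50%. They were 586 and 1036 with a trended and robust variance, 75 and 36 without moderation, and 660 and 1008 at a threshold of 0.10. With all 33297 rows tested, 179 rows were called higher and 73 lower, which counts rows and not genes. Without single arrays the gene counts ran from 183 to 364 higher and from 95 to 513 lower. Settings for TNFRSF10C were not run, as it had no row of its own. The cause of these changes was not tested.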
